A study of Homo sapiens with 6 samples.

Results

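The genes described here encode secreted matrix proteins, a membrane-anchored metalloprotease and a metalloprotease inhibitor: SPARC, THBS1, TNC, FN1, TGFBI, VCAN, ADAM19 and TIMP3. They were measured in HCT116 cells, an established human colon carcinoma line, that were either BRCA2 knockout or wild type. The 8 genes were taken from 13139 genes with a probe set of exactly 1 annotated symbol, and all 8 were measured. They were chosen because SPARC, THBS1 and TIMP3 were higher and VCAN and ADAM19 lower in the knockout, so their differences between the genotypes are given as a description, with no test. FN1 had 2 such probe sets, of which the one with the higher mean over the 6 arrays stands for the gene. TIMP3 had a further probe set that also carries the symbol of SYN3 and was not used.

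The BRCA2 knockout group consisted of 3 arrays of isogenic HCT116 cells in which both BRCA2 alleles had been targeted in turn by homologous recombination. The wild-type group consisted of 3 arrays of unmodified HCT116 cells. Both were grown in McCoy's 5A medium with fetal bovine serum, and no further treatment is named for either group. The labels call the arrays technical replicates, although the extraction protocol speaks of 3 frozen samples of each genotype, and they name no clone. Thus n counts arrays, and every p-value below measures spread among arrays, which may be technical. BRCA2 loss cannot be told apart from any other difference between the lines. BRCA2 itself was not analysed here.

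Values are log2 probe set values of a whole-transcript array, on which a difference of 1 is a doubling, and 3 arrays per genotype limit the precision. Array medians ran from 7.41 to 7.80 in the knockout and from 7.36 to 7.71 in the wild type. Knockout array 2 and wild-type array 1 had the highest median of their genotype. Over all probe sets, knockout array 2 correlated with wild-type array 1 (Pearson r = 0.924) more than with knockout arrays 1 and 3 (r = 0.876 and 0.893). Wild-type array 1 correlated about as closely with wild-type array 3 (r = 0.925) and less with wild-type array 2 (r = 0.896). The main results are also given without both arrays of highest median. Of the epithelial markers, EPCAM was at 9.75 to 10.31 in the knockout and 9.47 to 10.10 in the wild type. KRT18 was at 12.24 to 12.33 in the knockout and 11.95 to 12.05 in the wild type. The intestinal markers KRT20, VIL1, CDX1, CDH17 and GPA33 lay below every array median on all 6 arrays. CDX2 averaged 8.20 in the knockout and 7.73 in the wild type. Of the 14 colon epithelial markers, 13 were higher and 1, GPA33, was lower in the knockout. The summed level of 14 measured colon epithelial markers was 14.56 to 14.80 (log2) on knockout arrays and 13.95 to 14.31 on wild-type arrays, without overlap. The sum adds unlogged values and so rests mostly on the brightest genes, KRT8, KRT18 and KRT19. The summed level of 8 measured fibroblast markers was 9.52 to 10.23 on knockout arrays and 9.16 to 9.82 on wild-type arrays, and these ranges overlapped. The summed levels of 8 endothelial markers (9.44 to 10.09 on knockout arrays and 9.60 to 10.14 on wild-type arrays) and of 5 blood markers (9.51 to 9.98 and, on wild-type arrays, 8.91 to 9.75) overlapped too. No marker had a value below 0 on any array. In limma 0 markers were called, as in the ordinary analysis of variance, and 1 epithelial (CDH1, 1.15 ± 0.24) and 1 fibroblast marker (COL1A1) were higher at an unadjusted p under 0.05. The largest differences of the endothelial and blood lists were 1.54 for TEK and -0.82 for LYZ. The part of these markers in the results below was not tested. In bulk RNA, fewer cells of a kind and less RNA per cell cannot be told apart.

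Matricellular proteins are secreted into the extracellular matrix but serve mainly to modulate how cells attach and respond to it, while structural glycoproteins such as fibronectin build the scaffold. Integrins and other cell-surface receptors bind both kinds. Metalloproteases of the MMP, ADAM and ADAMTS families cut matrix and cell-surface proteins, and TIMP proteins inhibit them. In the colon most matrix is made by stromal cells, but carcinoma cells also express matrix genes. TGF-beta signalling is a well-known inducer of several of these genes, TGFBI among them.

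The sequences before the transcription start of the 5 genes that separated the genotypes are shown so that the promoters of the higher and the lower genes can be set side by side. Each is the 250 bases that end just before the annotated start, 5′ to 3′ on the strand of the gene, from RefSeq on GRCh38.p14. SPARC lies at chr5:151686916-151687165 on the minus strand and ADAM19 at chr5:157575776-157576025 on the minus strand. THBS1 lies at chr15:39580829-39581078, TIMP3 at chr22:32801455-32801704 and VCAN at chr5:83471494-83471743, all on the plus strand. Capitals mark GGGCGG, the GC box bound by SP1, and GGAATG, the core bound by TEAD factors, each searched on both strands.
SPARC: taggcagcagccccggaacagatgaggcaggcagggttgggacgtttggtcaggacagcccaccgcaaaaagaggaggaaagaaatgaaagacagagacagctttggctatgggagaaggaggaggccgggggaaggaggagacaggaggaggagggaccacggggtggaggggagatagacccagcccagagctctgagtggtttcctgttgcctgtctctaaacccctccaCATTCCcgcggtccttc
THBS1: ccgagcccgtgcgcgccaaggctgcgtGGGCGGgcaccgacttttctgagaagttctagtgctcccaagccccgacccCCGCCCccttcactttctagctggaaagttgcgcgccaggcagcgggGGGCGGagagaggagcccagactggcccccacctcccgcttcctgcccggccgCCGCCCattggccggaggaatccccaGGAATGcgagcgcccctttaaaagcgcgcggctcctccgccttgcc
TIMP3: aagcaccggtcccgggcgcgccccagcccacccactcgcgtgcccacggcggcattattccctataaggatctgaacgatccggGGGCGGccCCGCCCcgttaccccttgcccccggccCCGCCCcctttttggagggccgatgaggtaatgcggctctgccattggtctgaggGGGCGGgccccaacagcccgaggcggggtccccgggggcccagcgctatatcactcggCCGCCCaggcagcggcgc
VCAN: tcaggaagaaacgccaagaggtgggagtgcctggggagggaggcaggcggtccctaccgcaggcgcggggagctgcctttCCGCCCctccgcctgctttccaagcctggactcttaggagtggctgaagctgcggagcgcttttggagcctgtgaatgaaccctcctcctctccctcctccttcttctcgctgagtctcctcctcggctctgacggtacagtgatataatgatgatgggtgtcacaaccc
ADAM19: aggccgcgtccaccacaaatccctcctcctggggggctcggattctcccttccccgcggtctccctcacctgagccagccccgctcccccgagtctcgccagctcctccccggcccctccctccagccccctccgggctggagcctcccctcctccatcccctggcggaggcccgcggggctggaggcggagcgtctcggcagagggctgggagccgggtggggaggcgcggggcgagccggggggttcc

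The GGAATG core was found in 2 of the 8 promoters, those of SPARC and THBS1, and in 11.9% of 35116 promoter windows of the same length. GGGCGG was found in 6 of the 8, the exceptions being SPARC and ADAM19, and in 42.6% of all windows. The short SMAD core GTCT was present in all 8, as in 77.5% of all windows, and the E-box CANNTG in 3, against 61.8% of all windows. Neither the AP-1 site TGANTCA nor TATAAA was present in any of the 8, and these were found in 6.57% and 10.7% of all windows. Each motif was searched on both strands, and a match of 1 motif may overlap that of another. GC content ran from 54.8% in TNC to 76.4% in FN1 and ADAM19, with a median of 58% over all windows. A match describes the letters and not an occupied site.

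Of the matricellular genes, SPARC encodes a collagen- and calcium-binding glycoprotein that weakens cell adhesion. It was at 9.39, 9.39 and 9.30 on knockout arrays 1, 2 and 3, against 4.91, 4.65 and 3.77 on wild-type arrays 1, 2 and 3. The knockout arrays lay within 0.084 of each other and all were at least 4.39 above the highest wild-type array. The log2 difference was 4.91 ± 0.35 (SE), or 30.2-fold. Its wild-type values were low on the scale, which leaves the size of the fold uncertain, and with values under 4 set to 4 the difference was 4.84.

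THBS1 encodes thrombospondin 1, a trimeric glycoprotein that binds the receptors CD36 and CD47 and can activate latent TGF-beta. Its values were 9.39, 9.59 and 9.34 on the knockout arrays, against 6.98, 6.17 and 6.73 on the wild-type arrays. The genotypes were again separate, with a gap of 2.35 between the nearest arrays. The difference was 2.81 ± 0.30 (SE), or 7.02-fold.

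TNC encodes tenascin C, a matricellular protein of wound and tumour stroma. It was at 6.69, 5.88 and 9.10 on knockout arrays 1, 2 and 3, against 6.47, 6.52 and 5.85 on the wild-type arrays. Knockout array 3 stood far above the other 5 arrays, while knockout array 2 lay within the wild-type range, so the groups overlapped. The difference of 0.95 ± 0.78 (SE) was 0.01 without knockout array 3. The same array stood apart for 2 partner genes of the family, which were picked out after the values were seen. These were ITGB3, an integrin chain of the tenascin and fibronectin receptors, and HAPLN1, the link protein that joins versican to hyaluronan. The other integrin partners ITGAV, ITGB1 and ITGA5 did not show this. The share of all genes with this pattern was not counted. ITGB3 was at 7.88, 7.72 and 10.05 on knockout arrays 1, 2 and 3, against 7.85, 7.999 and 7.37 on the wild-type arrays. HAPLN1 was at 4.46, 4.43 and 6.02 in the knockout, against 4.54, 4.23 and 4.13 in the wild type.

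Among the adhesive glycoproteins, FN1 encodes fibronectin, which assembles into fibrils through integrin alpha 5 beta 1. Its values were 5.12, 7.09 and 5.33 on the knockout arrays, against 7.42, 6.32 and 6.25 on the wild-type arrays. Knockout arrays 1 and 3 lay below all wild-type arrays, while knockout array 2 exceeded 2 of them. The difference was -0.82 ± 0.59 (SE), and its other probe set gave -0.66 ± 0.32, with overlap in both. Leaving out any 1 array gave differences for FN1 from -1.44 to -0.44.

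TGFBI encodes a secreted protein with fasciclin domains that is induced by TGF-beta and binds collagens and integrins. It was at 6.07, 6.01 and 6.43 on the knockout arrays, against 5.67, 6.94 and 6.39 on the wild-type arrays. All 3 knockout values lay inside the wild-type range, and the difference of -0.16 ± 0.37 (SE) was smaller than its error. It ran from -0.50 to 0.14 with any 1 array left out.

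VCAN encodes versican, a large chondroitin sulphate proteoglycan that binds hyaluronan and is cleaved by ADAMTS proteases. It was at 8.05, 8.82 and 8.18 on the knockout arrays, against 10.65, 10.18 and 10.35 on the wild-type arrays. Every knockout array was at least 1.36 below the lowest wild-type array. The difference was -2.04 ± 0.31 (SE), which is 4.12-fold lower in the knockout.

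ADAM19 encodes a membrane-anchored metalloprotease that sheds growth factor precursors such as neuregulin. Its values were 6.46, 7.10 and 6.69 on the knockout arrays, against 9.84, 9.85 and 9.76 on the wild-type arrays. The wild-type arrays lay within 0.091 of each other, and the nearest arrays of the genotypes were 2.66 apart. The difference was -3.07 ± 0.27 (SE), or 8.38-fold lower in the knockout.

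TIMP3 encodes the inhibitor that binds to the matrix and acts on MMP, ADAM and ADAMTS enzymes. It was at 8.13, 8.04 and 7.74 on the knockout arrays, against 5.37, 4.21 and 4.53 on the wild-type arrays. The groups did not overlap and the gap was 2.37. The difference was 3.27 ± 0.36 (SE), or 9.62-fold. Its wild-type values were also low on the scale, and its probe set was among the dimmest 30% left out in an alternative, so the size of the fold is uncertain.

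**Figure D1:**
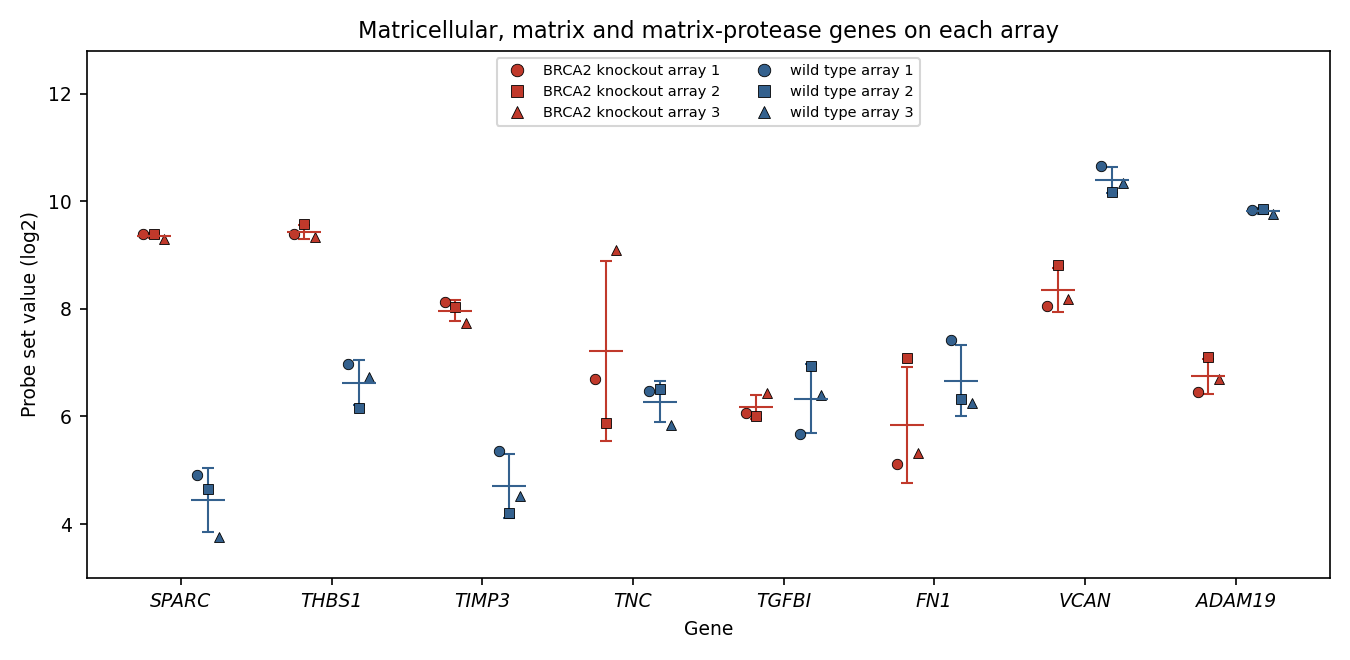
Log2 probe set values of the 8 genes on each of the 6 arrays, with the mean and SD of 3 arrays per genotype as a bar and whiskers. SPARC, THBS1 and TIMP3 lie higher on all knockout arrays, VCAN and ADAM19 lower, and TNC is high on knockout array 3 alone (9.10).

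For 5 of the 8 genes the genotypes were fully separate, 3 higher and 2 lower in the knockout, where 19.7% of all probe sets did not overlap (2336 of 19458 higher, and 7.70% lower). The same 5 were among the 111 probe sets called at an adjusted p under 0.05 in limma, which were 0.570% of all (0.416% higher and 0.154% lower). Nothing is read from these counts, as the genes were chosen on this contrast. Dropping single arrays left 1 to 4 of the 8 called: 4 without wild-type array 1, 3 without knockout array 2, 2 without knockout array 1 or wild-type array 2, and 1 without knockout array 3 or wild-type array 3. The sign of the difference held for 7 of the 8 genes when any 1 array was left out, and TGFBI was the exception. For the 5 genes without overlap no other outcome was possible. Without knockout array 2 and wild-type array 1 together, 0 of the 8 were called in limma, with 2 arrays left per genotype. The differences were then 5.14 for SPARC, 2.91 for THBS1, 3.56 for TIMP3, -2.15 for VCAN and -3.23 for ADAM19. TNC was at 1.71, FN1 at -1.06 and TGFBI at -0.42. Centring each array on its median changed the differences little, for example to 4.89 for SPARC and -3.09 for ADAM19, and the median of all probe sets differed by 0.02 between the genotypes.

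**Figure D2:**
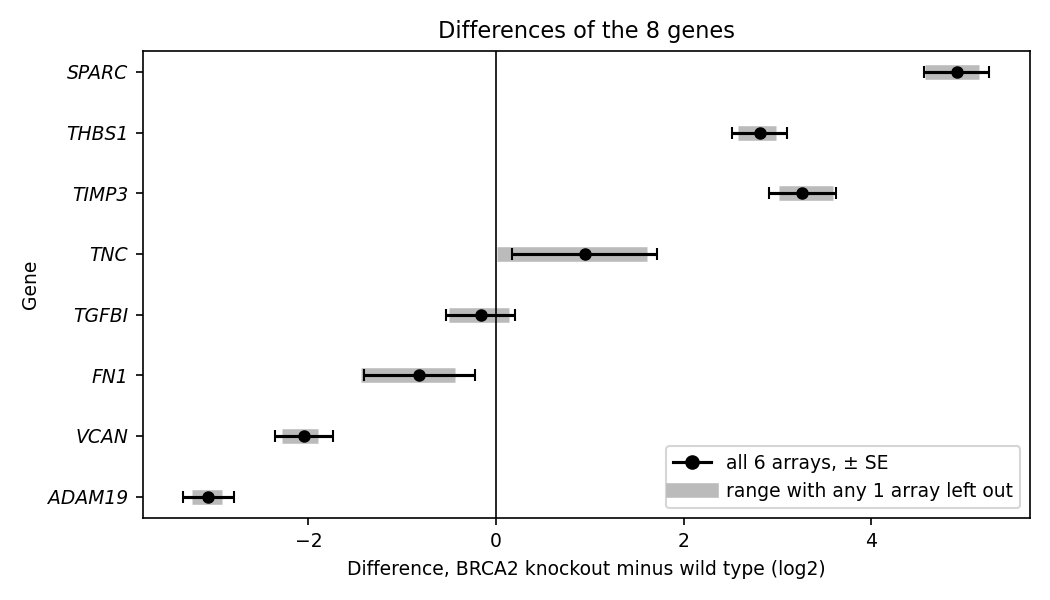
Log2 differences of the 8 genes, knockout minus wild type, as points with SE over all 6 arrays, and as grey bars the range with any 1 array left out. The bars of SPARC (4.58 to 5.15) and ADAM19 (-3.24 to -2.92) stay far from 0, and that of TNC (0.01 to 1.62) reaches it.

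Other genes of the matrix, its receptors and the TGF-beta pathway were described over 12 lists of 268 genes that hold none of the 8. The lists were chosen with earlier results of these data known, so their counts and shares are a description only. Among the 224 measured, knockout values were above wild type for 138 and below for 86 (median log2 difference 0.20), where 7184 of all 13139 genes were higher, 5955 lower and the median was 0.07. The 3 genes that passed an adjusted p of 0.05 were CCN1, ITGB8 and SMAD7, and all rose. They are 1.34% of the genes measured, while 0.655% of the 13139 genes were called (63 higher and 23 lower). Unadjusted p-values under 0.05 were found for 25 higher and 16 lower genes, where 6.92% of all probe sets were higher and 5.28% lower. Without knockout array 2 and wild-type array 1, 0 of the 224 passed, and the differences were 1.78 for CCN1, 3.13 for ITGB8 and 2.69 for SMAD7. The list median was above that of all genes in 8 of the 12 lists and below it in 4.

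CCN1 encodes a matricellular protein that binds integrins and is a classical target of YAP and TEAD. It was at 8.72, 8.69 and 8.50 on the knockout arrays, against 7.06, 6.65 and 7.00 on the wild-type arrays, without overlap. CCN1 rose by 1.73 ± 0.25 (SE, adjusted p = 0.0459 in limma), or 3.32-fold. The call was lost with any 1 array left out (adjusted p from 0.0992 to 0.230). Of the 19 measured matricellular genes beside the 3 above, 13 were higher and 6 lower (median 0.29), and CCN1 was called. The relatives CCN3 and CCN2, named after their values were seen, had differences of 1.68 ± 0.32 (adjusted p = 0.0979) and 1.11 ± 0.39 (adjusted p = 0.320) in limma, each without overlap. Of the relatives of THBS1 and SPARC none was called. THBS2, THBS3 and THBS4, also named after their values were seen, were at -0.22 ± 0.44, -0.28 ± 0.58 and 0.45 ± 0.49, and SPARCL1 at -0.02 ± 0.82.

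ITGB8 encodes the integrin chain that pairs with ITGAV to bind and activate latent TGF-beta. Its values were 8.04, 8.78 and 8.24 on the knockout arrays, against 5.98, 4.86 and 5.16 on the wild-type arrays. ITGB8 rose by 3.02 ± 0.38 (SE, adjusted p = 0.0260 in limma), or 8.09-fold. It kept its call without wild-type array 1 (adjusted p = 0.0348) and lost it without any other 1 array (up to 0.163). Of the 24 measured receptor genes, ITGB8 included, 12 were higher and 12 lower (median -0.01). Of the listed receptors of the 8 proteins none was called. Their differences were 0.13 ± 0.36 for ITGAV, 0.05 ± 0.38 for ITGB1 and -0.14 ± 0.32 for ITGA5, the chains of the fibronectin receptors. The THBS1 receptor genes CD36 and CD47 were at -0.39 ± 0.58 and -0.23 ± 0.56, and the hyaluronan receptor gene CD44 at -0.39 ± 0.27. CD36 was low on the scale, and with values under 4 set to 4 its difference was -0.06.

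SMAD7 encodes an intracellular inhibitor that TGF-beta signalling induces as feedback. It was at 7.20, 7.80 and 6.54 on the knockout arrays, against 4.33, 4.39 and 3.97 on the wild-type arrays. SMAD7 rose by 2.95 ± 0.37 (SE, adjusted p = 0.0260 in limma), or 7.72-fold. Its wild-type values were low on the scale, which leaves the size of the fold uncertain, and its probe set was among the dimmest 30% left out in an alternative. With values under 4 set to 4 the difference was 2.94. The call was lost with any 1 array left out (adjusted p from 0.0503 to 0.163). Of the 14 measured TGF-beta pathway genes, 12 were higher and 2 lower (median 0.43), and 6 higher and 1 lower gene had an unadjusted p under 0.05. Of all 13139 genes, 7184 were higher and 5955 lower, and 1089 and 689 of them had an unadjusted p under 0.05. The list was chosen with earlier results known, so its counts are a description only. TGF-beta signalling itself was not measured, and TGFBI, which it induces, differed by -0.16 ± 0.37 (SE). The ligand genes, named after their values were seen, differed in sign. TGFB2 was at 7.90, 8.66 and 8.15 on the knockout arrays, against 6.53, 6.32 and 5.70 on the wild-type arrays (difference 2.05 ± 0.34, adjusted p = 0.0660 in limma), and TGFB1 differed by -0.74 ± 0.29 (adjusted p = 0.374).

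**Figure D3:**
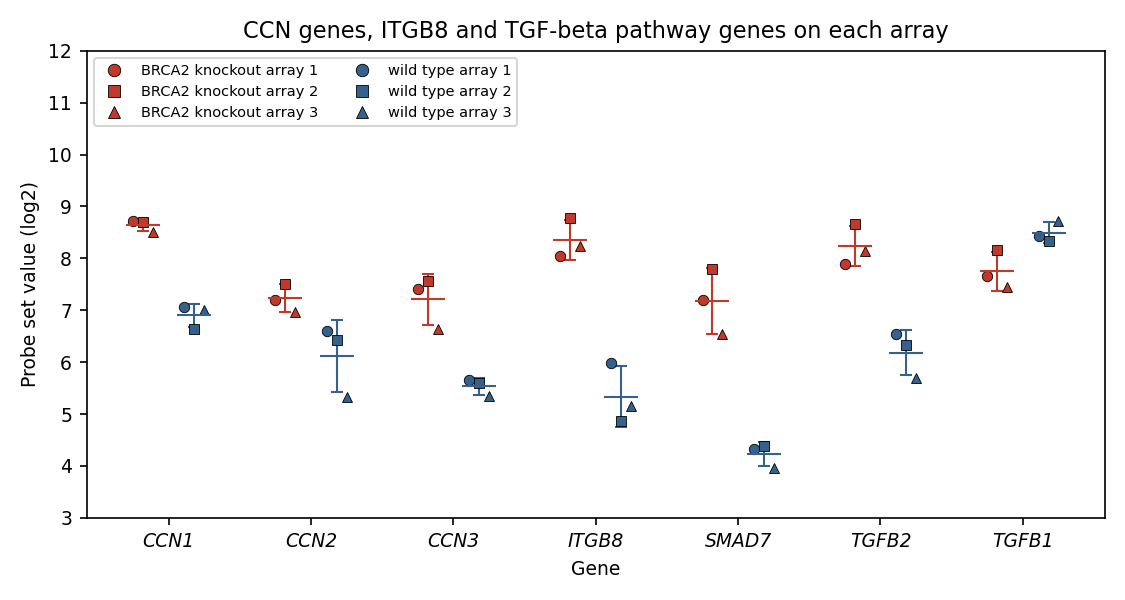
Log2 probe set values of CCN genes, ITGB8 and TGF-beta pathway genes on each array, with mean and SD of 3 arrays per genotype. CCN1, ITGB8 and SMAD7 passed the test, the other genes were picked after their values were seen, and TGFB1 alone is lower on all knockout arrays.

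Structural matrix genes held no call in limma. Collagens had 17 of 29 members higher and 12 lower (median 0.21), and 2 on each side had an unadjusted p under 0.05. COL8A1, which encodes a short-chain collagen, had the largest difference of the list (3.77 ± 3.56, adjusted p = 0.708 in limma), which came from a single value of -8.70 on wild-type array 3. Its other values were 3.94 to 4.97 in the knockout and 5.19 and 5.73 in the wild type. COL1A1, a chain of type I collagen that is also a fibroblast marker, was at 8.68, 8.38 and 8.84 in the knockout, against 7.66, 7.57 and 7.38 in the wild type (1.10 ± 0.26, adjusted p = 0.159 in limma). Basement membrane genes had 10 of 16 members higher (median 0.05), yet the 2 with an unadjusted p under 0.05 were both lower. They were the laminin chain genes LAMA4 (-1.72 ± 0.49, adjusted p = 0.232 in limma) and LAMA5 (-1.52 ± 0.24, adjusted p = 0.0540), the second of them named after its values were seen. LAMA5 was at 8.30, 8.14 and 8.01 on the knockout arrays, against 9.61, 9.72 and 9.69 on the wild-type arrays. Among the listed matrix genes, which hold none of the 8, LAMA5 alone passed in the ordinary analysis of variance named by the series design. CCN1, ITGB8 and SMAD7 did not pass there.

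Of 21 elastic fibre and adhesive glycoprotein genes, 12 were above and 9 below wild type (median 0.19), and 1 on each side had an unadjusted p under 0.05. The largest difference was in NPNT, which encodes the integrin ligand nephronectin (-1.50 ± 0.36, adjusted p = 0.170 in limma). Proteoglycan and hyaluronan genes, the class of VCAN, had 18 of 25 members higher and 7 lower (median 0.35), and unadjusted p under 0.05 was reached by 3 as higher and 0 as lower. GPC3, which encodes a membrane-anchored heparan sulphate proteoglycan, was at 5.66, 5.74 and 4.59 in the knockout, against 2.95, 2.54 and 3.15 in the wild type. The difference of 2.45 ± 0.38 did not pass the test (adjusted p = 0.0547 in limma). It was 1.33 with values under 4 set to 4, since the wild-type values lay at the bottom of the scale. The crosslinking and collagen-processing genes were the list of lowest median, with 5 of 16 higher and 11 lower (median -0.36), of which 1 as higher and 3 as lower had an unadjusted p under 0.05. Their largest difference was in LOXL4, a lysyl oxidase gene, and went the other way (1.32 ± 0.26, adjusted p = 0.107 in limma). The collagen chaperone gene SERPINH1 was at -0.48 ± 0.24.

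Protease genes and inhibitor genes other than ADAM19 and TIMP3 held no call in limma or in the ordinary analysis of variance. The other ADAM genes had 5 of 9 members higher and 4 lower (median 0.26), with ADAM20 at -1.09 ± 0.32 (adjusted p = 0.240 in limma) as the 1 gene under an unadjusted p of 0.05. ADAM10 and ADAM17, TIMP3 targets, were not analysed here. ADAMTS genes had 12 of 17 members higher (median 0.33), 4 as higher and 0 as lower had an unadjusted p under 0.05, and ADAMTS16 had the largest difference (1.35 ± 0.32, adjusted p = 0.168 in limma). The ADAMTS genes known to cleave versican were not called, and their arrays overlapped. Their differences were 0.03 ± 0.64 for ADAMTS1, 0.43 ± 0.45 for ADAMTS4, -0.41 ± 0.74 for ADAMTS5 and 0.58 ± 0.47 for ADAMTS9. MMP genes had 15 of 21 members higher and 6 lower (median 0.39), of which 2 as higher and 3 as lower had an unadjusted p under 0.05. MMP8, a neutrophil collagenase, differed by -2.36 ± 0.63 (adjusted p = 0.203 in limma) and by -0.20 with values under 4 set to 4.

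Of the other TIMP genes none was called. TIMP1, whose product is a secreted inhibitor of MMPs, was at 11.41, 11.30 and 11.45 in the knockout, against 11.70, 12.25 and 12.17 in the wild type. Its difference of -0.65 ± 0.26 did not pass the test (adjusted p = 0.383 in limma), although the arrays did not overlap. TIMP2 differed by 0.41 ± 0.27 and TIMP4 by 0.21 ± 0.37. Over the inhibitor and plasminogen genes, 7 of 13 were higher and 6 lower (median 0.05), and TIMP1 was the 1 gene with an unadjusted p under 0.05. RECK, which encodes a membrane-anchored inhibitor, had the largest difference, -0.70 ± 0.49 (adjusted p = 0.608 in limma).

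**Figure D4:**
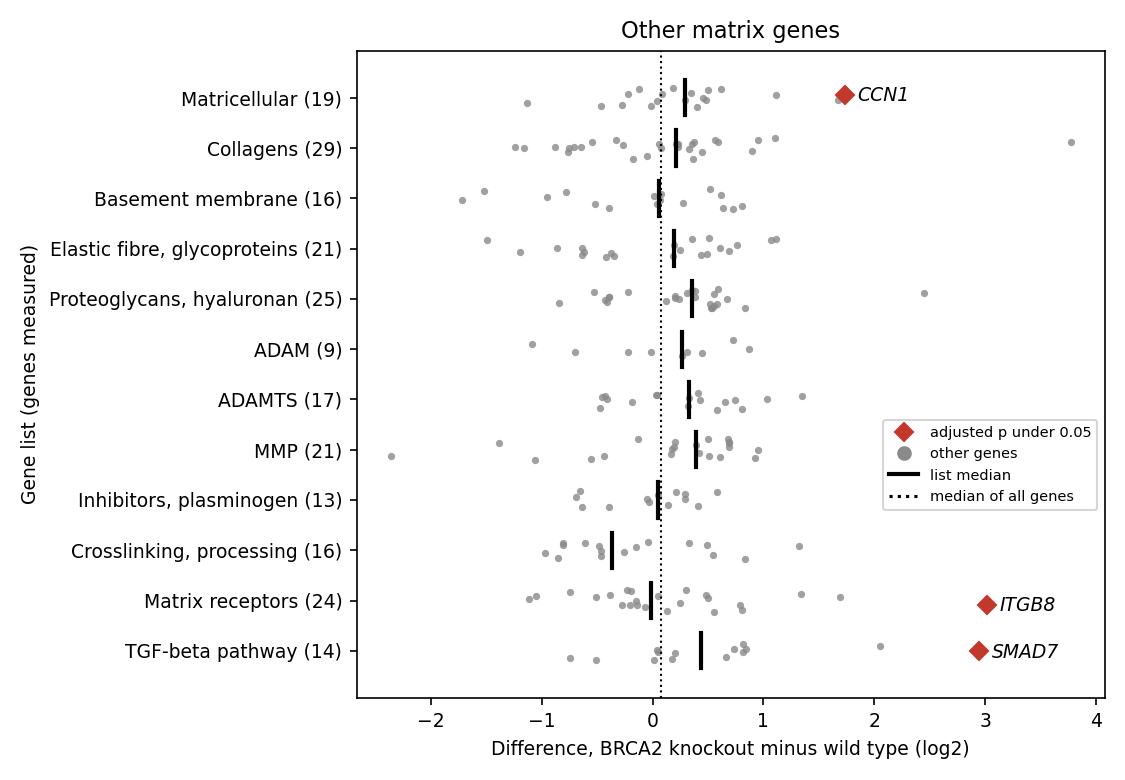
Log2 differences, knockout minus wild type, of the 224 measured genes of 12 matrix lists, a point per gene, with the median of each list as a bar and that of all genes (0.07) as a dotted line. Diamonds mark CCN1, ITGB8 and SMAD7, and the isolated collagen point at 3.77 is COL8A1.

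Position was not part of the choice of the 8 genes. By RefSeq, 4 of them lie on chromosome 5 (SPARC, TGFBI, VCAN and ADAM19), which holds 4.36% of the 13121 measured genes with a location. The other 568 measured genes of chromosome 5 had a median difference of -0.01 and 0 calls in limma, with an unadjusted p under 0.05 for 26 higher and 22 lower genes and 0 calls in the ordinary analysis of variance. The other members lie on chromosomes 2 (FN1), 9 (TNC), 15 (THBS1) and 22 (TIMP3).

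The 5 nearest measured genes on each side of each of the 8 gave 80 neighbours, of which 43 were higher and 37 lower in the knockout (median 0.04). In limma, 1 of them was called, where 0.655% of the 13139 genes were. This was RASGRP1, a guanine nucleotide exchange factor gene that is the second measured gene before THBS1. RASGRP1 was at 7.46, 8.03 and 8.003 on the knockout arrays, against 5.75, 5.57 and 5.17 on the wild-type arrays, and it rose by 2.33 ± 0.30 (SE, adjusted p = 0.0267 in limma). The call was lost with any 1 array left out (adjusted p from 0.0738 to 0.172), and without knockout array 2 and wild-type array 1 the difference was 2.36. The genes next to THBS1, LINC02694 and FSIP1, which overlaps it, differed by 0.32 ± 0.45 and 0.55 ± 0.33.

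On either side of SPARC, the cadherin-related gene FAT2 was at 1.62 ± 0.39 (adjusted p = 0.170 in limma) and the copper chaperone gene ATOX1 at 0.59 ± 0.26 (adjusted p = 0.423), and neither overlapped between genotypes. They were the 2 of the 10 SPARC neighbours without overlap. Among all 80 neighbours, 7 were higher and 7 lower without overlap, as were 1854 and 930 of the 13139 genes. Beside VCAN, the end joining gene XRCC4 was lower on all knockout arrays (-1.04 ± 0.34, adjusted p = 0.289 in limma) and HAPLN1 was at 0.67 ± 0.47. The neighbours of ADAM19, CYFIP2 and SOX30, differed by -0.07 ± 0.36 and 0.08 ± 0.55, and those of TIMP3, FBXO7 and HMGXB4, by 0.12 ± 0.29 and -0.47 ± 0.37.

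**Figure D5:**
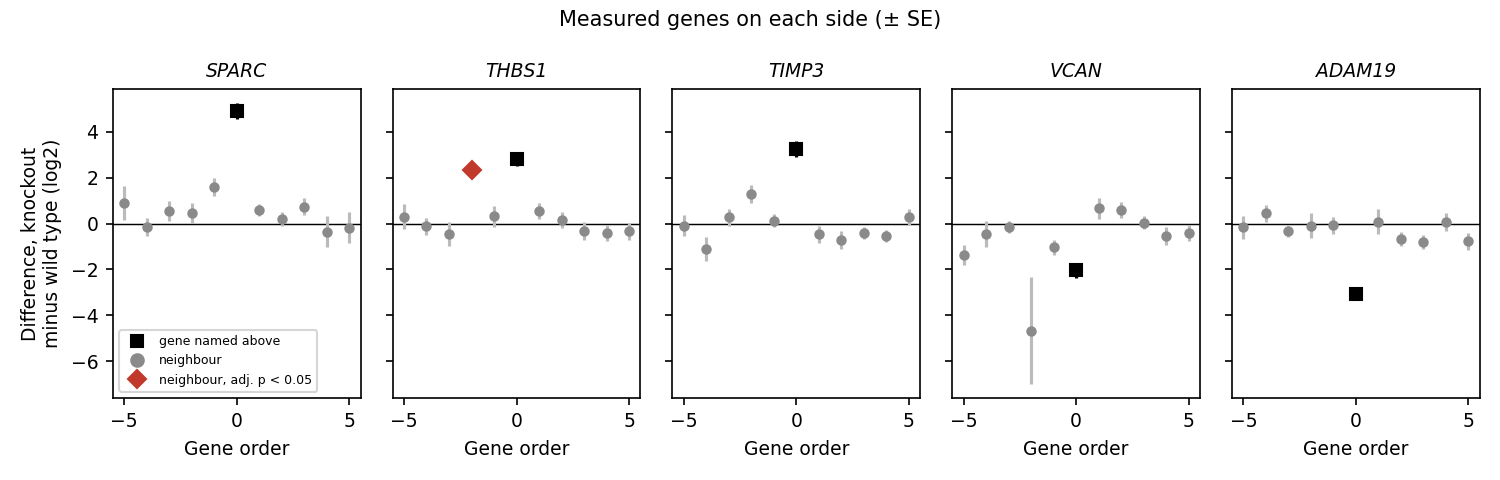
Log2 differences with SE of 5 genes (squares, at 0) and of the 5 measured genes on each side of each in chromosome order. The diamond is RASGRP1 (2.33), and the low point with a long error bar beside VCAN is TMEM167A (-4.66 ± 2.33), which overlapped between genotypes.

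Over the 6 arrays, the genes whose values followed SPARC most closely were AVPI1, EIF1AY and SLCO3A1 (Pearson r = 0.997 for each) among 10215 genes with a mean of at least 6. AVPI1, a vasopressin-induced gene, was at 10.62 ± 0.02 in the knockout and 9.64 ± 0.09 in the wild type (SD, n = 3 arrays each), and SLCO3A1, an organic anion transporter gene, at 8.81 ± 0.18 in the knockout and 5.37 ± 0.27 in the wild type. EIF1AY, a translation initiation factor gene of the Y chromosome, averaged 10.05 ± 0.14 in the knockout and 2.43 ± 0.66 in the wild type. The difference was 7.61 ± 0.37 (SE), or 6.05 with values under 4 set to 4. The lines thus differed in a Y-linked gene as well, and the part of such differences in the values of the 8 genes was not tested. Those most like ADAM19 were AHNAK2 (r = 0.996), FBH1 and ACSL5 (r = 0.995 for both). ACSL5, an acyl-CoA synthetase gene, was at 8.56 ± 0.15 in the knockout and 10.72 ± 0.17 in the wild type. Such values describe a shared split between the genotypes, since 267 genes exceeded an r of 0.95 with SPARC and 132 with ADAM19. The genes were picked for following this split, so no test of them is given. EIF1AY and SLCO3A1 reached a mean of at least 6 only through the knockout arrays.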

How the data were processed

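The data were 3 whole-transcript arrays of BRCA2 knockout and 3 of wild-type HCT116 cells, labelled technical replicates, each a column of 19458 probe sets. The deposited values are log2 probe set summaries. Per the submitters' processing notes, RMA and R 2.11.1 were used with the build hg18. The RMA steps run are not stated. That the scale is log2 follows from the values themselves. Array medians differ, so the deposited values do not share a common distribution. Whether a quantile step was run before the probe sets were summarized is not known.

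Names came from the annotation of the platform, in which 13301 probe sets had 1 symbol and 2044 several. Symbols were updated by gene identifier against RefSeq (13280 matched). A gene with several probe sets is represented by that of highest mean. Gene order and promoters come from RefSeq GRCh38.p14, which is not the build named by the submitters.

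Genotypes were compared with limma 3.58.1 in R 4.3.3 (lmFit, eBayes, no block), with Benjamini-Hochberg adjustment over all probe sets and a call at an adjusted p under 0.05. The code was tested on simulated data. The 8 genes, the lists and the alternatives were chosen with earlier results of these data known. Genes were named by a rule: the 8 genes, up to 4 called genes of each list or else that of largest difference, listed partners, nearest and called neighbours, and the 3 genes most like SPARC and ADAM19. The text says where others were added.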

Additional observations from a re-analysis of the deposited data

How the results depend on the processing

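Alternatives covered scaling between arrays, dim probe sets, the variance model, array weights, pairing and left-out arrays. The array weights were 6.96 for wild-type array 3 and 0.40 to 1.04 for the others, so that setting leans heavily on 1 array. The 111 called probe sets became 175 with median centring, 174 with quantile normalization, 184 without the dimmest 30% of probe sets, 169 with values under 4 set to 4, 396 with a variance trend and 778 with array weights, and 24 to 63 with any 1 array left out. The 5 calls among the 8 genes fell to 2 in the one-way analysis of variance without moderation (SPARC and ADAM19) and to between 1 and 4 with any 1 array left out. Without the dimmest 30%, 4 were called, as TIMP3 was itself left out. FN1 and TGFBI, which were not called in the main fit, were left out too. The 3 called matrix genes became 5 with median centring, 6 with quantile normalization, 6 without dim probe sets, 5 with values under 4 set to 4, 9 with a variance trend, 18 with array weights, 1 in the analysis of variance and 0 or 1 with any 1 array left out. The 1 called neighbour became 2 with either scaling, with values under 4 set to 4 and with a variance trend, the second being ABCA12, then 6 with array weights, and 0 in the analysis of variance or with any 1 array left out. Of the marker genes, 0 were called in limma as deposited, and 2 with a variance trend (CDH1 and KRT8) and with array weights (CDH1 and COL1A1). Without both arrays of highest median, 7 probe sets and 0 of the 8 genes, matrix genes and neighbours were called, with 2 arrays left per genotype. The causes of the other changes were not tested.

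The replicate numbers did not pair the arrays. Deviations from the genotype means correlated at -0.24, -0.43 and 0.06 for arrays 1, 2 and 3, while knockout array 2 and wild-type array 1 correlated at 0.49. With the replicate number as a block, 3 probe sets and 0 of the 8 genes, matrix genes and neighbours were called. No difference of the 5 genes chosen for their direction changed sign under any alternative. As their arrays did not overlap, leaving out arrays could not have reversed a sign, so nothing is read from this.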
